A study of Mus musculus with 2 samples.

Results

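The old library of this aortic single-cell study held 70 barcodes in which haemoglobin messages made up most of the RNA, and these 70 barcodes, out of 3408 in that library and 4774 in the series, are described here. A barcode marks the RNA caught in 1 droplet, usually 1 cell. The members were chosen by their counts: every barcode with over 50% of its UMIs (unique molecular identifiers, each standing for 1 captured RNA molecule) from the 4 adult globin genes Hba-a1, Hba-a2, Hbb-bs and Hbb-bt, with no filter on mitochondrial share or number of genes. Globin levels are therefore given as a description, and what is compared with the other 3338 barcodes is the RNA that remains after these 4 genes are left out. The study had 2 droplet libraries of C57BL6/J mouse aorta, 1 labelled 8 weeks old (young) and 1 labelled 18 months old (old), with no other treatment or allele on the labels. The inner surface of the opened aorta, stripped of its outer coat, was bathed in trypsin for 10 min and scraped off with a small scalpel. Each library was loaded with 8700 cells for a target of 5000. With 1 library per age there is no replicate, so no p-value is given, and every interval below is a 95% exact interval that covers counting error only.

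Mature red cells of mammals have no nucleus. In their last days of development erythroblasts fill with haemoglobin, expel the nucleus and become reticulocytes, which still hold messenger RNA and lose it, with their mitochondria and ribosomes, over the following days. Haem for the globin chains is made in and around the mitochondria, starting with the erythroid enzyme Alas2, and the clearance of organelles and proteins runs through mitophagy and the ubiquitin system.

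Alas2, the marker outside the rule that was listed for these cells, was seen in 68 of the 70 members and in 33 of the 3338 others. A filter requiring 200 genes and no more than 10% mitochondrial UMIs would have kept 33 members and 3303 of the 3338 others. The remaining 37 members held under 200 genes. No member was over 10% mitochondrial, a share taken of all UMIs with globin included. The member share of the old library was 2.05% of barcodes (1.60% to 2.59%). No young barcode met the rule. With 3 counts standing for the 0 of 1366, a share of up to 0.220% is allowed, an approximate limit and not an exact interval. The libraries shared 11 barcode sequences, and 1 of them was a member.

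Globin shares fell into separate ranges. The share was over 80% in 67 members and lay at 55.1%, 57.9% and 68.9% in the other 3, and the lowest of the 67 held 83.0%. Just outside the rule were 8 barcodes between 13.7% and 45.0%, and every remaining barcode held at most 0.585%. Members held a median of 2453.5 UMIs (1547 to 8176), against 4760 in the others (1541 to 28278). As the lowest barcode of the library had 1541 UMIs, droplets with less RNA are not among those described. Outside the 4 genes the median member held 226.5 UMIs (lowest 85, highest 2360) in 190.5 genes, and the median other barcode 4755.5 UMIs in 1975 genes. Summed over members, the remaining RNA came to 27072 UMIs, 12.4% of all their UMIs.

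**Figure D1:**
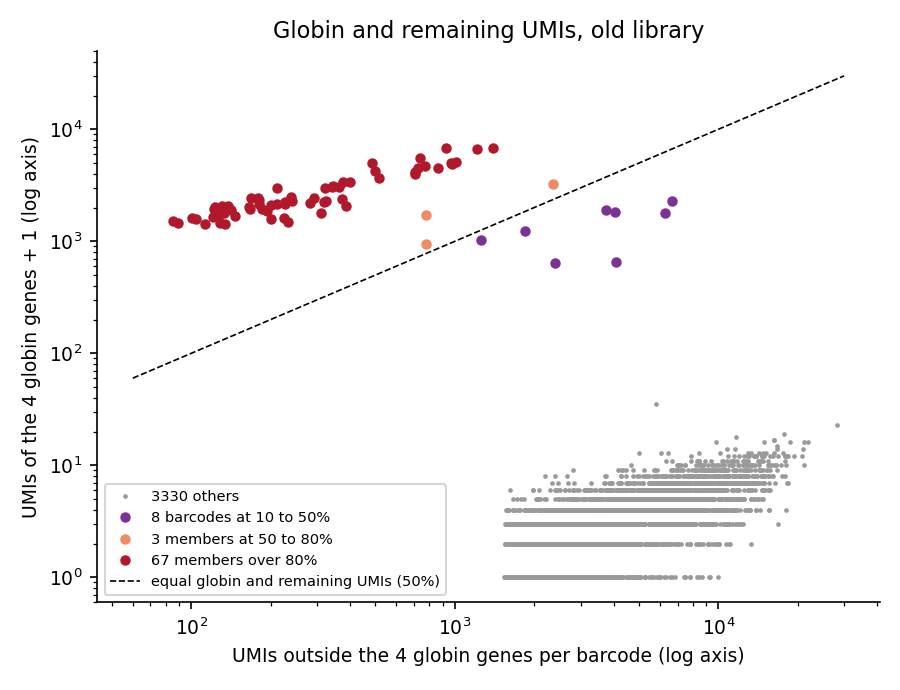
UMIs of the 4 globin genes plus 1 (vertical, log axis) against UMIs outside them (horizontal, log axis), 1 point per barcode of the old library. The 67 members over 80% lie far above the dashed line of equal numbers, the 3 other members and the 8 barcodes at 13.7% to 45.0% lie on either side of it, and the 3330 others form a separate cloud below.

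The 4 genes of the rule encode the alpha and beta chains of adult haemoglobin. Hba-a1 and Hba-a2 lie on chromosome 11 (GRCm38, GENCODE vM21: 32283511 to 32284465 and 32296489 to 32297298), and Hbb-bs and Hbb-bt, the s and t adult beta chain genes of this strain's haplotype, on the reverse strand of chromosome 7 (103826534 to 103828096 and 103812524 to 103813996). The 250 bases before the RefSeq start of 1 alpha gene, both beta genes and Alas2 (GRCm38.p6) are shown because these are the messages by which the members stand apart. Capitals mark AGATAA or TGATAA, the letters bound by GATA factors, CACCC, which Klf1 and related factors bind, and CCAAT, each on either strand. They stand at chr11:32296242-32296491 (forward), chr7:103827929-103828178 (reverse), chr7:103813924-103814173 (reverse) and chrX:150547167-150547416 (forward).
Hba-a2: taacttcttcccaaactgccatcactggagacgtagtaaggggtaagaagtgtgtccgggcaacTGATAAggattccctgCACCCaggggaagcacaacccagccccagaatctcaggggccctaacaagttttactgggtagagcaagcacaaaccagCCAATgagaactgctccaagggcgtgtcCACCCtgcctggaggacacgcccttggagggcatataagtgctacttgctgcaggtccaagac
Hbb-bs: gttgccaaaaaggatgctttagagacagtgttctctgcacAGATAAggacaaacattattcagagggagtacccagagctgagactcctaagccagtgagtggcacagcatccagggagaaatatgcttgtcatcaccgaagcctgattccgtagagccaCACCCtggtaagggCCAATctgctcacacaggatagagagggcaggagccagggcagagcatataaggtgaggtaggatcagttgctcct
Hbb-bt: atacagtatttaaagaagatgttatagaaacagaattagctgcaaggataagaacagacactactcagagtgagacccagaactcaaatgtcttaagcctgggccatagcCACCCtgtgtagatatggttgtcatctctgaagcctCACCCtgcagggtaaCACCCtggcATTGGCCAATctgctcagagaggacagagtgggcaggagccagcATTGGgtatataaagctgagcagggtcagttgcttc
Alas2: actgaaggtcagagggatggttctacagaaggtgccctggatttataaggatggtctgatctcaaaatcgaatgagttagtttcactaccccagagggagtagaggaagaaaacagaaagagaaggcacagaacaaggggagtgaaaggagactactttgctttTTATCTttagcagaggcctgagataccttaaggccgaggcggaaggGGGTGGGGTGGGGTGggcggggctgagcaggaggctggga
The GATA letters occurred in the windows of Hba-a2, Hbb-bs and Alas2 and not in that of Hbb-bt, and 16.6% of 32851 such windows in the table held them. CACCC occurred in all 4 windows (52.0% of the table), and CCAAT in the 3 globin windows (33.8%). These windows were picked for their genes. For the 37 genes over 4-fold higher in the remaining RNA of members, 36 windows were found, from 27 of the genes. Of these 36 windows 4 (11.1%) held the GATA letters, 55.6% held CACCC and 33.3% CCAAT. By gene it was 4, 15 and 11 of the 27. In the Hbb-bt window a CCAAT match on each strand stands side by side. The Hba-a1 and Hba-a2 windows were identical at 97.6% of aligned bases, and those of Hbb-bs and Hbb-bt at 68.4%.

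Hbb-bs was the most counted of the 4 messages. Members held 544 to 3079 UMIs of it (median 954.5), 250 to 1821 of Hba-a1 (median 608), 148 to 1467 of Hba-a2 (median 458.5) and 12 to 764 of Hbb-bt (median 187.5). All 4 genes were present in every member. The alpha genes together gave 46.6% of the globin UMIs (46.4% to 46.8%), and single members ran from 34.3% to 57.3%. Hbb-bt gave 16.3% of the beta UMIs (16.1% to 16.6%), with single members from 2.16% to 26.0%. The alpha pair was steadier: Hba-a2 gave between 36.0% and 49.2% of alpha UMIs in each member. The split within a pair rests on few distinguishing bases. Of the 50-base words in the last 500 bases of Hba-a1 transcripts, 91.1% also occur in another gene, mostly Hba-a2. For Hba-a2 the share was 88.3%, for Hbb-bt 64.5% (mostly with Hbb-bs) and for Hbb-bs 56.1%. Shared words were thus more common in the alpha genes than in the beta genes. Their effect on the alpha share and on the order of the 4 messages was not tested.

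**Figure D2:**
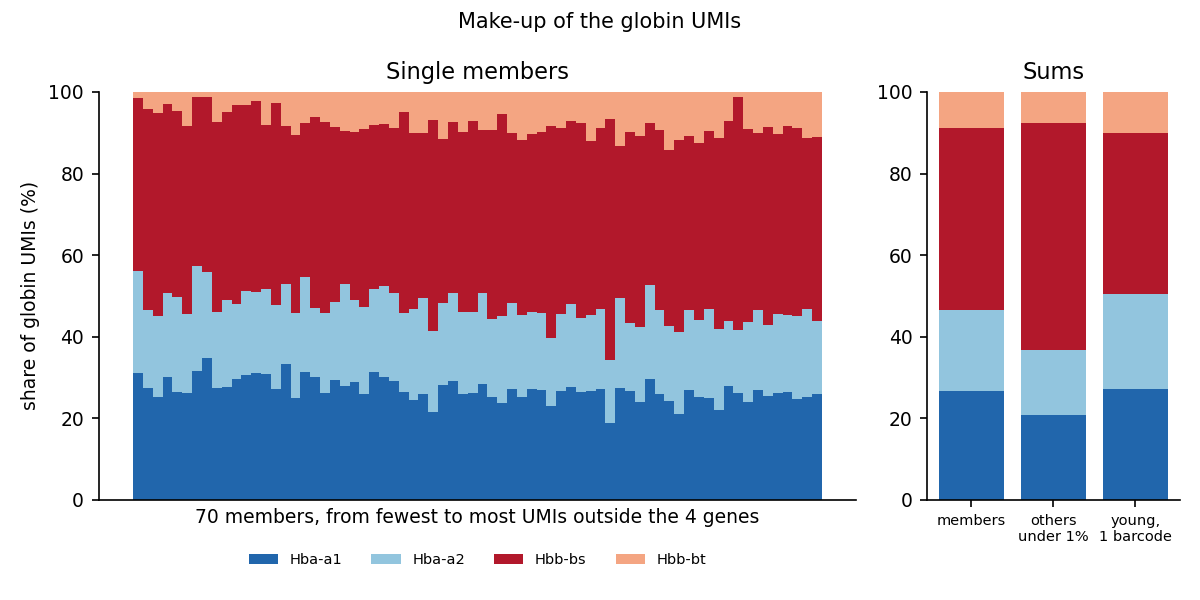
Share of globin UMIs (%) from each of the 4 genes, 1 bar per member from fewest to most UMIs outside the 4 genes (left), and for sums over members, over the 3330 old barcodes under 1% and in 1 young barcode (right). The Hbb-bt band is thin in several members and the alpha bands are lower in the old barcodes under 1% (36.8%) than in members (46.6%).

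Members with more remaining RNA held relatively more Hbb-bt and less alpha globin. The 67 members over 80% were divided at their median remaining UMIs, a split made after the data were seen, into 34 with 85 to 224 UMIs and 33 with 226 to 1393. The Hbb-bt share of beta UMIs was 13.2% (12.8% to 13.6%) in the 34 and 18.0% (17.7% to 18.3%) in the 33, and the alpha share was 49.5% (49.1% to 49.9%) and 45.3% (45.0% to 45.5%). Single members of the 2 sets overlapped in both measures: their Hbb-bt shares ran from 2.70% to 22.1% and from 9.75% to 26.0%. Across the 67 members, Spearman's rho with remaining UMIs was 0.55 for the Hbb-bt share and -0.56 for the alpha share. These points share 1 library, and both measures come from the same counts.

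In the remaining RNA, a small group of messages, Alas2 among them, stood out. Most other genes with enough UMIs to compare were close to their level in the other barcodes. Each gene's UMIs were summed over members and over others and divided by the UMIs outside the 4 globin genes, giving CPM (UMIs per 1000000 UMIs outside the 4 genes). Of 395 genes with an observed plus expected member count of at least 20, 37 were over 4-fold higher in members (9.37%) and 1 was over 4-fold lower (0.253%). The expected count was under 10 for 30 of the 37, so these passed the minimum through their UMIs in members, and a fall could be seen only for abundant genes. The 37 genes made up 11.4% of the members' remaining UMIs and 0.959% of the others'. The median log2 ratio of the 395 genes was -0.09, and 331 of them lay within 2-fold. The 395 genes held 59.6% of the members' remaining UMIs and the 331 held 44.8%. Genes below the minimum are not covered by these counts. Of the 37, 20 were in the 8 erythroid lists and 17 were not; of all 395 genes 31 were in these lists, and of the 331 within 2-fold 7 were. The lists were drawn up with earlier results of these data known.

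**Figure D3:**
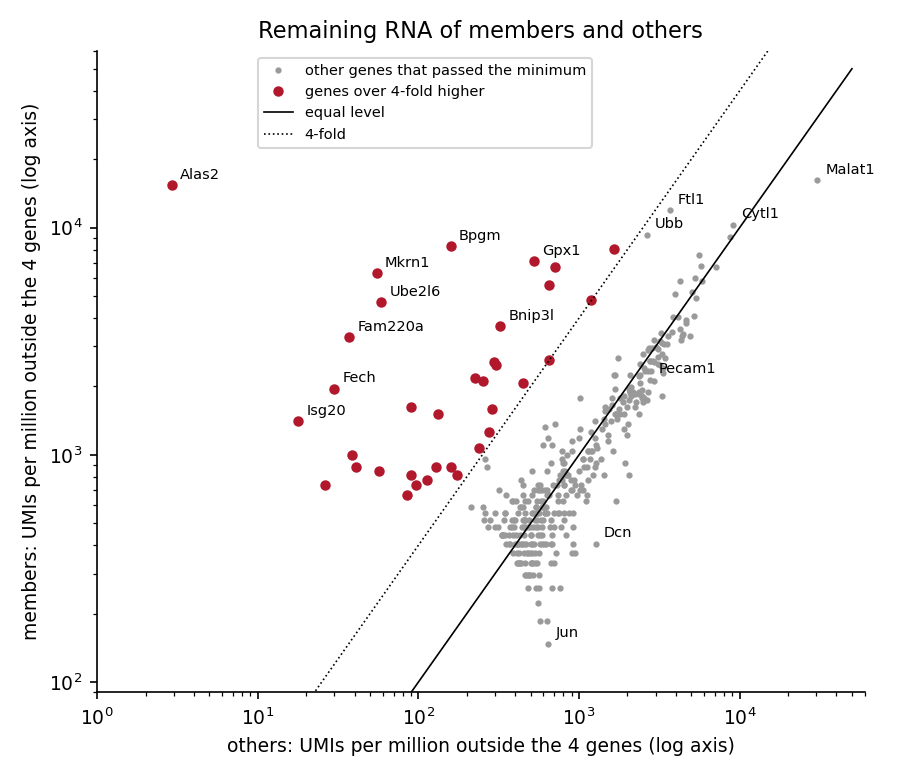
Level of genes that passed the count minimum in members (vertical) and others (horizontal), in CPM outside the 4 globin genes, both on log axes. The drawn genes over 4-fold higher lie left of the dotted line, with Alas2 the farthest drawn from the line of equal levels.

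By its summed UMIs, haem synthesis was the list farthest above the other barcodes (log2 ratio 6.55, 6.41 to 6.69), through 2 genes. Alas2 (X, 150547375 to 150570638), the first and rate-limiting enzyme of haem synthesis in erythroid cells, had 417 UMIs in members and 55 in the others. That is 15403 against 2.91 CPM, a log2 ratio of 12.37 (11.96 to 12.81). It ranged from 0 to 18 UMIs per member with a median of 4, so nearly all members held a few. Fech, which inserts iron into the ring in the last step, had 53 UMIs in 35 members, with no member above 3 UMIs (log2 ratio 6.04, 5.60 to 6.44). Both were among the 12 listed genes and were the only ones to pass the count minimum, with a median log2 ratio of 9.20. With few expected UMIs, both passed only through their UMIs in members. The median therefore describes these 2 genes and not the list. Of the rest, 8 had a few UMIs, and Uros and Abcb10 had none.

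Genes of the red cell membrane and its skeleton were sparsely counted. In that list 14 of 23 genes had no UMI in members, among them the ankyrin gene Ank1, the beta spectrin gene Sptb and Rhag. Cd24a, a surface protein also found on other cells, had 69 UMIs (log2 ratio 3.10, 2.74 to 3.44), and Epb41, protein 4.1 of the skeleton, 15 UMIs (4.63, 3.78 to 5.37).

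Genes of protein and organelle clearance were the largest erythroid list in UMIs. Its 27 genes held 904 UMIs, 33392 CPM against 6186 in the others. Of the 11 that passed the minimum 8 were over 4-fold higher, beside 37 of all 395 that passed (9.37%). Genes with few expected UMIs passed only through their UMIs in members, so such counts lean towards higher genes. Mkrn1, a ubiquitin ligase, had 171 UMIs in 46 members (log2 ratio 6.84, 6.60 to 7.08). Ube2l6, a conjugating enzyme for Isg15 and ubiquitin, had 127 in 49 members (6.32, 6.05 to 6.59). Bnip3l, the receptor that directs mitochondria to autophagy in reticulocytes, had 100 in 41 members (3.52, 3.22 to 3.80), although 31.0% of its 3′ words are shared with other genes, mostly a pseudogene. Gabarapl2 and Map1lc3b, which coat the autophagosome, had log2 ratios of 3.02 and 2.20. Ubb, a ubiquitin precursor that shares 73.7% of its 3′ words with other genes, was higher by less than 4-fold (log2 ratio 1.82). Fbxo7, Xpo7 and Trim58, which act late in erythroid maturation, had no UMI in members.

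Some enzymes that handle oxygen and peroxide were high and others were level with the other barcodes. In the list of the globin chaperone and antioxidant genes 3 of the 6 that passed the minimum were over 4-fold higher. In that of red cell glycolysis and gas handling it was 1 of 2, and among all 395 genes that passed 9.37%. Here too, some genes with few expected UMIs passed only through their UMIs in members. Bpgm (6, from 34476207), which makes the 2,3-bisphosphoglycerate that lowers the oxygen affinity of haemoglobin, had 225 UMIs in 50 members (log2 ratio 5.71, 5.51 to 5.91). Its level ranged from 0 to 18 UMIs with a median of 2. Gpx1, glutathione peroxidase, had 192 UMIs in only 31 members, 54 of them in 1 (3.76, 3.54 to 3.96). Weighting each barcode equally lowered the log2 ratio of Gpx1 to 2.99. Prdx2, a peroxiredoxin abundant in red cells, had 57 UMIs in 20 members, 19 of them in 1 (3.07, 2.67 to 3.44), and Blvrb, biliverdin reductase B, had 21 (2.78, 2.08 to 3.39). The other antioxidant genes that passed were Gpx4 (0.04, -0.71 to 0.70), Txn1 (0.14, -0.86 to 0.98) and Mgst3 (0.45, -0.33 to 1.13), and the glycolytic enzyme Aldoa was at 0.21 (-0.66 to 0.96). Car2, a carbonic anhydrase, had 11 UMIs in 6 members and 3 in all others. The mitochondrial iron importer Slc25a37 had 17 UMIs in 14 members (5.76, 4.96 to 6.47). The ferritin light chain Ftl1 was higher by less than 4-fold (1.70, 1.54 to 1.86) and the heavy chain Fth1 less so (0.46, 0.23 to 0.69); Ftl1 shares 74.0% of its 3′ words with other genes. The transferrin receptor Tfrc had no UMI in members.

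Regulators of earlier erythroid stages were at 0 or had few UMIs. Of the 15 erythroid transcription factors 7 had UMIs in members, 36 in all, and of the 10 early erythroid and progenitor genes 3 had them, 16 in all. Lmo2, a partner of Tal1 that endothelium also makes, had 21 UMIs where 24.1 were expected (log2 ratio -0.20, -0.89 to 0.41), Cd34 had 11 where 11.9 were expected, and Gata2 had 3. The 2 UMIs of Myb, a factor of progenitors, were both in 1 of the 3 members under 80%. Gata1, Klf1 and Tal1, the transcription factors that switch on the globin and haem genes, had no UMI in members, and neither did the erythropoietin receptor Epor or the stem cell factor receptor Kit. In 27072 UMIs a count of 0, with 3 counts standing for it, allows a level of up to about 111 CPM. Of the 18 proliferation genes 11 had no UMI, and Ube2c, an enzyme of the anaphase, had 13 UMIs in 10 members (log2 ratio 5.90, 4.96 to 6.72). The embryonic globins Hba-x, Hbb-bh1, Hbb-bh2 and Hbb-y were at 0. The theta globin genes Hbq1a and Hbq1b had 6 UMIs and 1 UMI.

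Several of the 25 highest genes were in none of the erythroid lists. Fam220a had 89 UMIs in 47 members (log2 ratio 6.48, 6.14 to 6.80), Sec61g, a subunit of the channel for secreted proteins, had 152 (3.11, 2.87 to 3.34), and Ppp1cb, a catalytic subunit of protein phosphatase 1, had 44 (4.18, 3.71 to 4.61). Pabpc1, which binds the poly(A) tail, had 59 (3.27, 2.87 to 3.64). Among the other late erythroid genes, Isg20, an exonuclease induced by interferon, had 38 UMIs in 24 members (6.29, 5.77 to 6.78), and Rsad2, also induced by interferon, had 14 in 11 members (7.40, 6.44 to 8.26).

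The lower side held few genes. Jun, an immediate early transcription factor, was the single gene past 4-fold, with 4 UMIs where 17.2 were expected (log2 ratio -2.11, -3.98 to -0.75), and with the 67 members over 80% alone it was at -1.88. With the threshold at 30% it was at -0.51, and the single gene past 4-fold was then Dcn. Malat1, a long RNA kept in the nucleus, had 439 UMIs where 822.7 were expected (-0.91, -1.04 to -0.77). In the 67 members over 80% its log2 ratio was -1.87, as the other 3 members held 246 of its UMIs. Dcn and Fstl1, made by fibroblasts, had log2 ratios of -1.64 and -1.62, and the splicing factor Rbm39 -1.77. The other 10 of the 15 lowest genes, among them the fibroblast and smooth muscle product Igfbp5, the actin regulators Arpc1b and Tmsb10 and the intermediate filament gene Vim, ran from -1.55 (Arpc1b) to -0.54 (Tm4sf1).

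Summed over members, ribosomal protein, translation factor and mitochondrial messages were near the level of the other barcodes. The 17 listed translation factor genes gave 1.89% of remaining UMIs against 1.74%. Ribosomal protein genes gave 17.5% of the members' remaining UMIs (17.0% to 17.9%) against 20.4%, and 68 of the 80 that passed the minimum were lower, none by 4-fold. Mitochondrially encoded genes gave 3.03% (2.83% to 3.24%) against 2.92%. Without the 3 members at 50% to 80% the share was 2.38%. The median mitochondrial share of single barcodes was 2.14% in members and 2.78% in others.

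Endothelial messages made up about the same part of the remaining RNA as in the whole library. The 15 endothelial markers had 221 UMIs in 55 members, 0 to 19 per member with a median of 2, or 0.816% of remaining UMIs (0.713% to 0.931%) against 0.898% in the others. Of these 15 markers Robo4 alone was at 0. Pecam1, the junction protein of endothelium, had 58 UMIs where 74.6 were expected (-0.36, -0.76 to 0.01), and Egfl7 and Vwf were at 0.08 and 0.35. The abundant secreted products, Cytl1 and Mgp, were at 0.18 and 0.06. Fibroblast markers came to 3472 CPM against 5542, smooth muscle markers to 259 against 561 and macrophage markers to 776 against 863. Platelet, B cell, and T and NK markers had 4, 6 and 2 UMIs in all members, and neutrophil and adipocyte markers had none. In CPM these were 148 against 134 for platelet, 222 against 35.0 for B cell and 73.9 against 57.0 for T and NK markers. The 6 B cell marker UMIs lay in 3 members (log2 ratio 2.66, 1.21 to 3.79). What part of the remaining RNA came from the members' own cells and what part from RNA in the suspension or from a second cell was not tested.

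At equal depth Alas2 and Ube2l6 were seen in a larger share of members than of others, and Pecam1 in about the same share. Alas2 and Ube2l6 already had high ratios in the summed counts of these same barcodes. Their separation here is thus a description and no independent support. Barcodes were thinned to 100 UMIs outside the 4 genes, which left out 2 members. Alas2 was then seen in 54 of 68 members (79.4%, 67.9% to 88.3%) and 1 of 3338 others, and Ube2l6 in 31 of 68 (45.6%) and 22 of 3338 (0.659%). Unthinned, Ube2l6 was seen in 49 of 70 members and 869 of 3338 others, at median remaining UMIs of 226.5 and 4755.5. Pecam1 was seen in 22.1% of members (12.9% to 33.8%) and 21.8% of others, and Cytl1 in 64.7% (52.2% to 75.9%) and 52.0%, or 64.2% of the 2521 others in which endothelial markers were the list with most genes detected. Mgp was seen in 61.8% of members (49.2% to 73.3%) and 49.0% of others, or 59.9% of these 2521. Fth1, a gene of the iron list, was seen in 36.8% of members (25.4% to 49.3%) and 33.6% of others. Malat1 was seen in 63.2% (50.7% to 74.6%) and 92.2%.

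**Figure D4:**
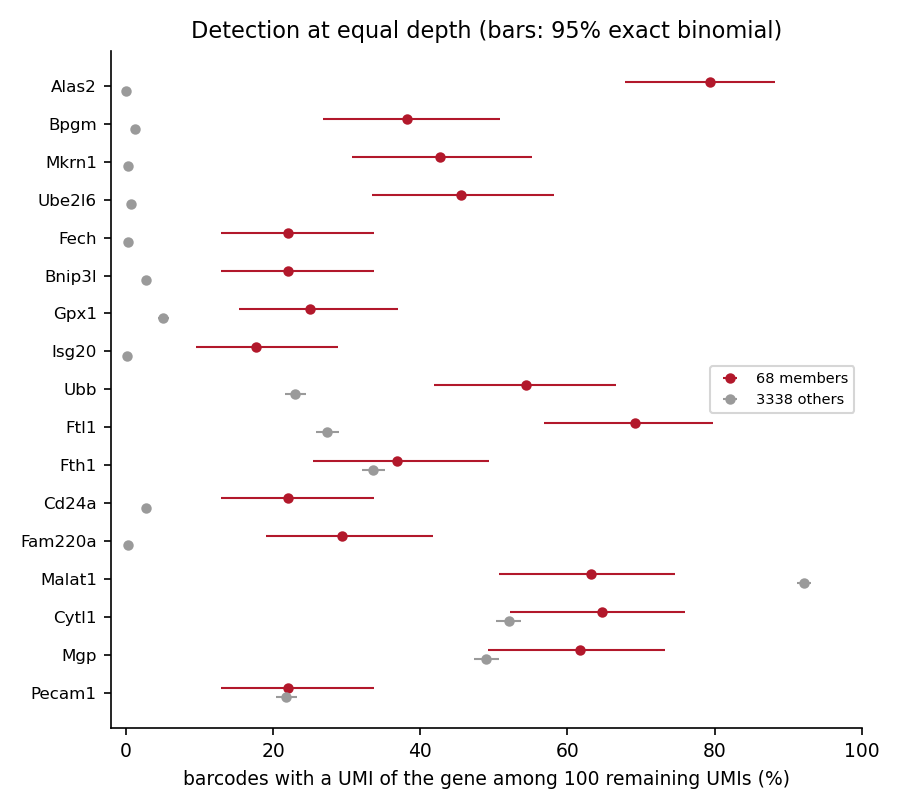
Share of barcodes with a UMI of each gene (%) after thinning to 100 UMIs outside the 4 globin genes, for 68 members and 3338 others, with 95% exact binomial intervals. Members lie far right of others from Alas2 to Isg20, overlap them for Fth1 and Pecam1, and lie left of them for Malat1 (63.2% and 92.2%).

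The members differed among themselves with the amount of remaining RNA. Gpx1 had 6 UMIs in the 34 members with less of it and 186 in the 33 with more, 1188 against 10272 CPM (log2 ratio 3.11, 1.96 to 4.58), and 2.73 without the member that held 54. Pabpc1 had 0 UMIs in the 34 and 58 in the 33. Bpgm and Mkrn1 were also higher in the members with more remaining RNA (0.74, 0.20 to 1.33, and 0.80, 0.16 to 1.51). Relative to remaining UMIs, Alas2 went the other way, with 21778 CPM in the 34 and 15906 in the 33 (-0.45, -0.78 to -0.12). So did Ube2l6 (-0.73, -1.30 to -0.14) and Fam220a (-0.96, -1.62 to -0.28). CPM divides by the same remaining UMIs on which the members were split. In UMIs per member the median was 2.5 in the 34 and 8 in the 33 for Alas2, and 1 and 3 for Ube2l6. The endothelial markers were at 8315 and 8836 CPM, and the mitochondrial genes at 16630 and 25791.

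**Figure D5:**
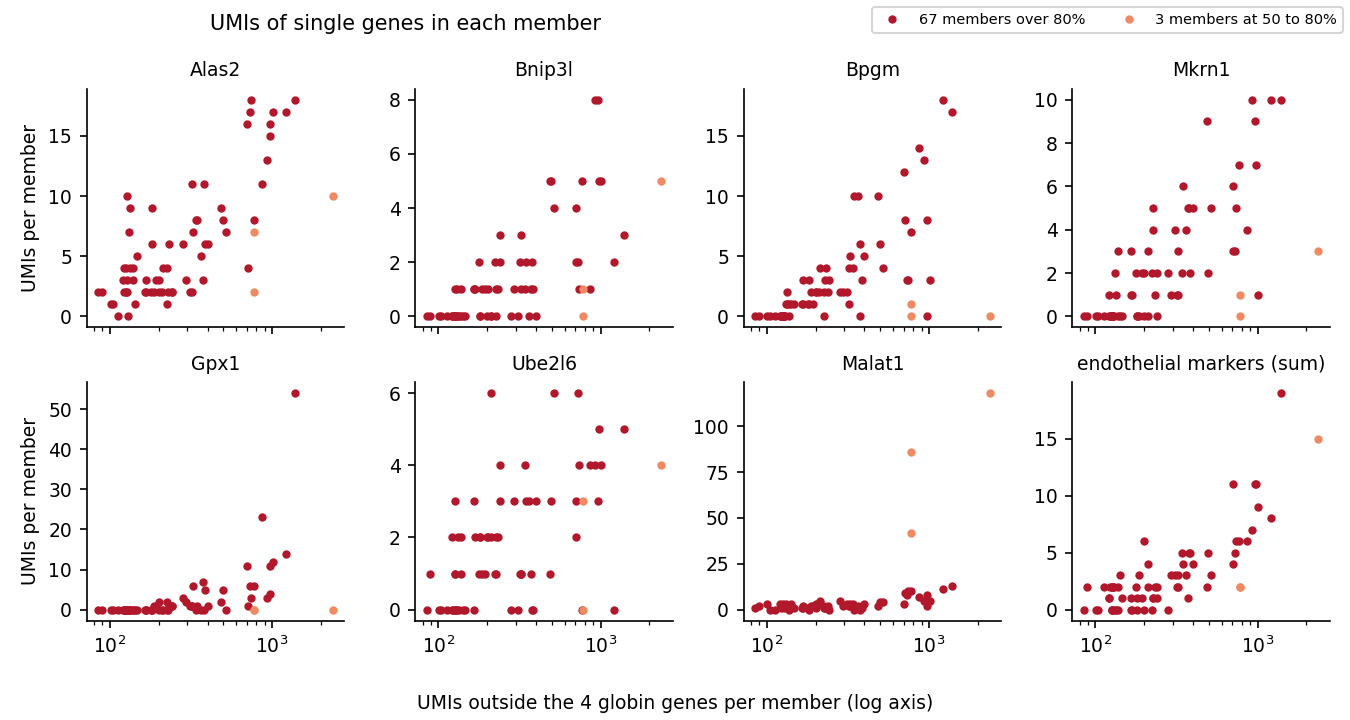
UMIs of 7 genes and of the summed endothelial markers in each of the 70 members (vertical) against the member's UMIs outside the 4 globin genes (horizontal, log axis). Gpx1 is near 0 below the middle of the range and reaches 54, Alas2 is present in most members at every depth, and Malat1 is high in the 3 members at 50% to 80% (42, 86 and 118 UMIs).

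The 3 members under 80% differed from the rest in Malat1. They held 777, 777 and 2360 remaining UMIs. Malat1 gave 5.0% to 11.1% of these, against at most 2.97% in the other 67, and mitochondrial genes gave 3.56%, 6.18% and 17.8%, where the other 67 reached 5.69%, so that the lowest of the 3 lay within their range. Summed, Alas2 was at 4854 CPM in these 3 members and Bpgm at 255, with no UMI of Gpx1 or Fech. The member at 68.9% held 3 UMIs of B cell markers, and the member at 55.1% had the lowest Hbb-bt share of all (2.16%).

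Beyond the rule, the 8 barcodes at 13.7% to 45.0% held 635 to 2289 globin UMIs together with 1254 to 6674 others. Alas2 was seen in 5 of them, with 27 UMIs in all, of the 55 found outside the members. Endothelial marker UMIs numbered 4 to 65 per barcode; the barcode with 9 held 89 UMIs of fibroblast markers, and the one with 4 held 38 of macrophage markers. No doublet caller was run. In the 3330 barcodes under 1%, globin UMIs averaged 3.24 per barcode, and of 1000000 UMIs of all genes they took 559 where endothelial markers led, 581 where fibroblast markers led and 741 where macrophage markers led. The alpha share of these UMIs was 36.8% (35.9% to 37.7%), below the 46.6% of members, and the Hbb-bt share of beta was 12.2% (11.4% to 13.0%), against 16.3%.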

How the data were processed

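Single-cell 3′ libraries (10x Chromium v2) were made from 1 young and 1 old aorta preparation. The authors deposited raw UMI counts (whole numbers, 1 row per gene). Cell Ranger and GRCm38 are named in the submitters' processing notes; the Cell Ranger version is not given in the sources used here, nor is the annotation. Both files hold 27998 gene names; totals were 12576023 (young) and 19171045 UMIs (old). Barcodes were grouped by their library's labelled age.

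The members and gene lists were chosen with earlier results of these data known. Member and other UMIs outside the 4 globin genes were summed and each gene's levels compared as a log2 ratio with an exact conditional binomial (Clopper-Pearson) interval; PCR and cell-to-cell variation are not covered. Named genes were the 25 highest and 15 lowest ratios by the interval bound nearest to equality, without mitochondrial, ribosomal protein, unnamed, Xist, Tsix and Y-linked genes, erythroid list genes with at least 10 member UMIs, and of each other list the 3 most counted genes and those at 0. Tested on simulated data of 801 genes, 200 of them altered, over 50 draws, the intervals held the true ratio for 96.6% of values. The simulation drew counting error only, at folds far smaller than that of Alas2. Genes with few expected member UMIs, such as Alas2, Mkrn1 and Ube2l6, were left out, so their intervals were not tested. Marker classes of other barcodes needed at least 3 genes detected. Promoters came from RefSeq (GRCm38.p6), positions from GENCODE vM21. Alternatives were other globin thresholds, a gene-number and mitochondrial filter, other comparison barcodes, equal weights, other minimums and folds, and another total. Intervals used scipy 1.17.1 (Python 3.11.15, numpy 2.4.6), tables pandas 2.3.3 and plots matplotlib 3.10.9. Some genes that passed the count minimum are neither reported nor drawn here.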

Additional observations from a re-analysis of the deposited data

Results flagged for a closer look

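The young library entered no comparison, yet held 2350 globin UMIs. Of these, 2021 were in 1 barcode of 13024 UMIs, where they made up 15.5%; the next highest young barcode reached 0.339%. The same barcode held 9 of the 10 Alas2 UMIs of the young library. Its alpha share was 50.5% (48.3% to 52.7%) and its Hbb-bt share of beta 20.4% (17.9% to 23.0%). The other 1365 young barcodes averaged 0.241 globin UMIs.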

How the results depend on the processing

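With over 80% globin required, no gene was over 4-fold lower and the mitochondrial share was 2.38%. Requiring 200 genes and no more than 10% mitochondrial UMIs left 33 members with a median of 497 UMIs outside the 4 genes, an alpha share of 45.1%, a mitochondrial share of 3.37% and 0 genes over 4-fold lower. The haem synthesis median, over only the listed genes that passed the minimum, was 9.69 against others under 1% globin. It was 8.56 against others no deeper than the deepest member. Weighting barcodes equally gave an alpha share of 47.1%, a mitochondrial share of 2.47% and 0 genes over 4-fold lower. A minimum of 50 UMIs left 20 genes higher and 0 lower, as fewer genes were tested. At 2-fold 17 genes were lower; at 8-fold 24 were higher and 0 lower. Without the deepest member 0 were lower. Without mitochondrial and ribosomal protein genes in the total, the endothelial share was 1.03%. Otherwise the causes were not tested. With the exclusion of the member whose barcode also occurs in the young library, an alternative chosen after seeing the data, 36 of the 37 higher genes were shared. Of 829 values of 93 named genes under the alternatives, 786 stayed within the main interval, 43 left it and 0 changed sign with an interval clear of equality. No paired analysis was possible because each age has 1 library and no test was run. Depth limits the lower side: at 27072 remaining UMIs, 3 counts are 111 CPM.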
